A study of Mus musculus with 3 samples.

Results

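Alpl, Spp1, Pth1r and Mmp13, which serve bone formation and the turnover of its matrix, were followed through the cell classes of mouse bone marrow (BM). They were taken by symbol and are 4 of the 125 targets that a custom primer panel detected in single cells. Each of them was read by 1 amplicon. The study asked how the marrow niche, and Wnt signalling within it, differs between the fetus and the adult. Its targeted single-cell sequencing comprised 3 libraries from wildtype C57/B6 mice, several animals being pooled in each. E18.5 EC holds endothelial cells (ECs) sorted from E18.5 embryos, with a gate given as CD31 and endomucin in one place and as CD31 alone in another. E18.5 BM cells, here the fetal marrow, are what was left after antibody-coated magnetic beads had taken out mature haematopoietic cells, and Adult BM cells are lineage-negative cells of adult marrow. For adult marrow the methods describe further depletion with CD71, CD117, CD45 and Ter119 antibodies, in an account of whole-transcriptome libraries, and for this library they name lineage-negative cells only. The fetal and adult procedures may thus differ, and the age of the adult animals was not given in the sources used here.

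After filtering, E18.5 EC had 4038 cells, the fetal marrow 12844 and the adult marrow 7939, with a median of 83, 97 and 242 molecules per cell, and between 432987 and 6304495 molecules in all. Between 38 and 113 barcodes occurred in each pair of libraries. Each library was clustered on targets that left out the 4 genes, the Wnt pathway and the cell cycle, and clusters were named from marker lists. The adult library gave osteoblast-like cells led by Bglap (305), cartilage-like cells led by Col2a1 (435), reticular-like cells led by Lepr and Cxcl12 (2611) and arterial-like cells led by Gja4 (441). Osteoclast-like cells led by Acp5, Ctsk or Atp6v0d2 were found in E18.5 EC (302) and the fetal marrow (865), and no adult cluster with Ptprc met that name. Clusters with Ptprc, the gene of the leukocyte antigen CD45, in over 80% of cells and no osteoclast profile are called Ptprc cells. The cartilage-like cells of the fetal marrow (155) had 4 cartilage and 3 osteocalcin markers among their 10 leading targets, so they hold both kinds of cell. Of them, 55 formed a subcluster led by Cxcl12, Notch3, Kitl, Cp and Lepr, all but Notch3 being on the reticular marker list. No osteoblast-like or reticular-like cluster was found at E18.5, and the adult osteoblast-like name rests on the osteocalcin genes Bglap, Bglap2 and Bglap3 alone. The sorted E18.5 EC library also held 302 osteoclast-like and 680 Ptprc cells.

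A level is given as molecules per 10000 panel molecules of a class, with an exact 95% Poisson interval. The intervals cover counting error only, since there was 1 library per group, cells of a library are not replicates, and no test across samples could be made. Amplicons differ in efficiency, so a level is compared between classes for one gene and never between genes.

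As background, osteoblasts lay down a collagen matrix and mineralize it, and hypertrophic chondrocytes do the same to the cartilage that bone replaces. Alpl encodes tissue-nonspecific alkaline phosphatase, which frees phosphate for mineral by splitting pyrophosphate. Spp1 encodes osteopontin, an acidic phosphoprotein that binds mineral and is secreted by bone cells, osteoclasts and macrophages. Pth1r encodes the receptor of parathyroid hormone and of its related peptide, through which both osteoblasts and growth plate chondrocytes are controlled. Mmp13 encodes collagenase-3, which cuts type II and type I collagen where cartilage and bone are remodelled.

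In GRCm38, with the transcripts that the amplicons name in GENCODE vM21, Alpl lies on chromosome 4 at 137741733 to 137796384 (minus strand, 12 exons) and Spp1 on chromosome 5 at 104435118 to 104441050 (plus strand, 7 exons). Pth1r and Mmp13 lie apart on chromosome 9, at 110722142 to 110742719 (minus strand, 14 exons) and 7272514 to 7283331 (plus strand, 10 exons). Spp1 and Mmp13 were highest in the same groups of cells of both marrow libraries, so their promoters are shown, from RefSeq (GRCm38.p6), 250 bases before to 50 after the start. Capitals mark the RUNX core TGTGGT or its reverse complement ACCACA and the AP-1 letters TGACTCA or TGAGTCA.
Spp1 promoter, chr5:104434861-104435160, plus strand: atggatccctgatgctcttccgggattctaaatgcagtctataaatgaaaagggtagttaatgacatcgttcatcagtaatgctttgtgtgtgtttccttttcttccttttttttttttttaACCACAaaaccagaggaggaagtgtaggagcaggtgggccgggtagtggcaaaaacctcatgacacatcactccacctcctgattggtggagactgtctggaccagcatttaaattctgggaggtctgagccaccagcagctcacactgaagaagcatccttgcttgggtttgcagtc
Mmp13 promoter, chr9:7272264-7272563, plus strand: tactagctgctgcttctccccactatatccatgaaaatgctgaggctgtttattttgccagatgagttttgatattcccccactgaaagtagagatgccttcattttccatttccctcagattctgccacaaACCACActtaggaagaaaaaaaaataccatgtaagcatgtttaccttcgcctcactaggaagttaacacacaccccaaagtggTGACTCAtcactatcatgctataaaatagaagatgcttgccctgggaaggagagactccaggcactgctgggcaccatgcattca
The RUNX core occurred once in each, beginning 128 bases before the start of Spp1 and 118 before that of Mmp13. The AP-1 letters occurred only in Mmp13, 35 bases before its start. Over all 32851 promoter windows of this length, 16.8% held the RUNX core and 5.20% the AP-1 letters, on either strand and without overlap of the motifs here. Neither occurred in the windows of Alpl (chr4:137796335-137796634) or Pth1r (chr9:110742561-110742860, whose start lies 109 bases from that of the amplicon's transcript). A match of letters describes the window and says nothing of binding.

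In adult marrow, none of the 4 genes was highest in the osteoblast-like cells. Alpl and Pth1r were concentrated in cartilage-like cells, which held 65.7% and 78.5% of their molecules, and Mmp13 in reticular-like cells (38.3%) and in a small unnamed cluster led by Mmp9 and Postn (145 cells, 48.3%). Spp1 was divided among reticular-like cells with 34.1%, cartilage-like cells with 25.2% and the Mmp9/Postn cluster with 22.8% of its molecules.

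**Figure D1:**
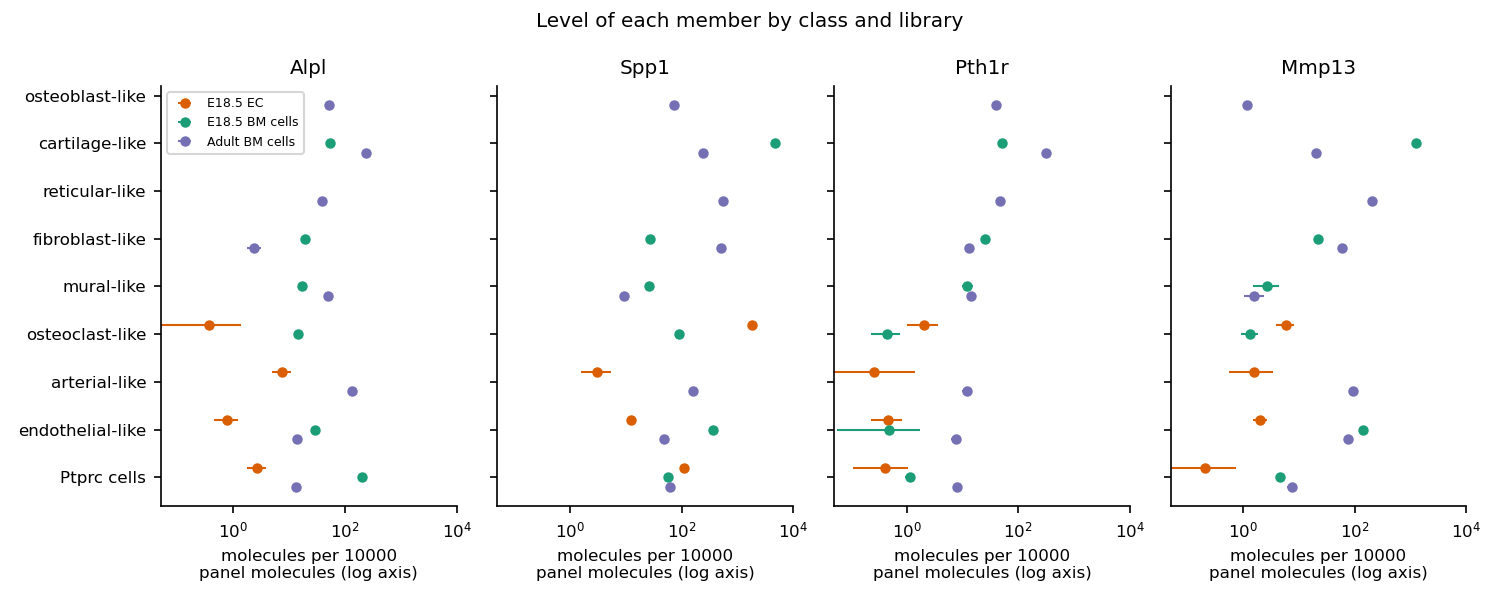
Level of each gene (molecules per 10000 panel molecules, log axis) in the named classes of the 3 libraries, with points for levels and bars for exact 95% Poisson intervals, many of them smaller than the point. In cartilage-like cells Spp1 and Mmp13 sit far higher at E18.5 and Alpl and Pth1r higher in the adult, and Alpl of Ptprc cells stands at 201 in E18.5 BM cells against 13.3 in the adult. The E18.5 cartilage-like cells include subclusters led by Cxcl12 and by osteocalcin genes.

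Alpl in the adult was highest in the Mmp9/Postn cluster, at 542 (529 to 555) per 10000, then in cartilage-like cells at 234 (231 to 236) and in arterial-like cells at 135 (127 to 143). Osteoblast-like cells, at 52.8 (51.7 to 53.8), and mural-like cells, at 50.3 (46.9 to 53.8), came next and were not separated by their intervals. Reticular-like cells had 38.04 (36.9 to 39.2). The lowest named classes were endothelial-like cells at 13.7 (11.8 to 15.8), Ptprc cells at 13.3 (11.7 to 15.03), which overlapped them, and fibroblast-like cells at 2.36 (1.75 to 3.12). An Alpl molecule was seen in 97.4% (94.9 to 98.9) of osteoblast-like and 93.3% (90.6 to 95.5) of cartilage-like cells, against 5.68% (4.64 to 6.88) of Ptprc cells. The median depth of these classes was 5670, 4003 and 90 molecules. At a fixed depth of 50 molecules per cell, the shares were 27.9%, 45.3% and 3.26%, so osteoblast-like and cartilage-like cells stayed above the Ptprc cells but well apart from each other.

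Spp1 in the adult reached 3504 (3471 to 3538) per 10000 in the Mmp9/Postn cluster, 559 (555 to 564) in reticular-like and 499 (489.6 to 509) in fibroblast-like cells. Cartilage-like cells had 245 (242 to 247), arterial-like cells 159.8 (151 to 169) and osteoblast-like cells 73.3 (72.02 to 74.5). The class values differ in how many cells carry them. In reticular-like cells 87.02% (85.7 to 88.3) had a molecule and the median cell held 12, whereas in fibroblast-like cells 5 of 357 cells held more than 50% of the molecules, and in arterial-like cells 1 cell did. Ptprc cells, with 61.5 (58.01 to 65.2) and a molecule in 19.5% (17.6 to 21.4) of cells, stood above the 47.9 (44.3 to 51.7) of endothelial-like cells. After thinning to 50 molecules per cell, 67.1% of reticular-like, 20.98% of osteoblast-like and 13.3% of Ptprc cells had a molecule.

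Pth1r in the adult was highest in cartilage-like cells at 310.1 (308 to 313) per 10000, followed by the Mmp9/Postn cluster at 202 (194 to 210.0). Reticular-like cells, at 46.5 (45.2 to 47.8), stood above osteoblast-like cells, at 39.2 (38.3 to 40.1). Both of these were above the mural-like (14.1), fibroblast-like (13.02) and arterial-like cells (12.002), whose intervals overlapped, and above the 7.94 (6.72 to 9.32) of Ptprc cells. The receptor was seen in most cells of the skeletal classes. It was present in 99.3% (97.998 to 99.9) of cartilage-like, 98.4% (96.2 to 99.5) of osteoblast-like and 76.7% (75.04 to 78.3) of reticular-like cells, against 5.57% (4.53 to 6.76) of Ptprc cells. At 50 molecules per cell these shares were 64.8%, 21.6%, 20.3% and 3.08%.

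Mmp13 in the adult stood at 2434 (2406 to 2462) per 10000 in the Mmp9/Postn cluster and at 206 (204 to 209) in reticular-like cells. It was 19.8 (19.2 to 20.4) in cartilage-like cells, where 50 of 435 cells had any and 3 cells held more than 50% of it. Osteoblast-like cells had 1.15 (0.996 to 1.31) and mural-like cells 1.58 (1.03 to 2.32), both below the 7.36 (6.18 to 8.69) of Ptprc cells. In each of these classes the error correction had removed most Mmp13 molecules, as given below. Of the 208 osteoblast-like molecules, 77 were in 1 cell. The value was 93.7 (87.1 to 101) in arterial-like cells, where 1 cell held 60.2% of the molecules. It was 73.9 (69.5 to 78.6) in endothelial-like and 57.7 (54.5 to 61.1) in fibroblast-like cells. In these, 3 of 1159 and 2 of 357 cells held at least 50% of the molecules. A molecule was seen in 59.98% (58.1 to 61.9) of reticular-like, 10.2% (7.01 to 14.1) of osteoblast-like and 4.35% (3.44 to 5.42) of Ptprc cells, and at 50 molecules per cell in 31.5%, 0.656% and 2.58%. The osteoblast-like share was thus above that of Ptprc cells as counted, and after thinning, where osteocalcin fills most of the drawn molecules, the exact intervals overlapped (0.0795 to 2.35% and 1.87 to 3.48%).

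The other adult clusters named by no marker list differed. A Prg4-led cluster (283 cells) had Alpl at 0.736 (0.528 to 0.998), Spp1 at 40.9 (39.2 to 42.6), Pth1r at 3.95 (3.44 to 4.51) and Mmp13 at 3.63 (3.14 to 4.16) per 10000. Each of these was below the level of adult Ptprc cells per 10000, at a median depth of 1545 against 90 molecules. Per cell the cluster was above Ptprc cells in Spp1 (8.05 against 0.669), Pth1r (0.777 against 0.0864) and Mmp13 (0.714 against 0.0800). Its Alpl was alike, at 0.145 and 0.144. The leading targets of the Prg4-led cluster included Acp5, Ctsk and Atp6v0d2, but Ptprc was seen in 1.77% of its cells. The osteoclast-like name was given only where most cells had Ptprc. A mixed cluster of 98 cells, with Ptprc in part of them, stood near the reticular-like cells at 31.97 (27.2 to 37.4), 627 (605 to 649), 36.1 (30.9 to 41.8) and 144 (133 to 155), and one of 71 cells led by Vwf and Srgn 0.594 (0.0151 to 3.31), 11.3 (6.80 to 17.6), 2.38 (0.648 to 6.09) and 9.51 (5.44 to 15.4).

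The order of classes depended on the scale, and a few genes filled the counts of some classes. The osteocalcin genes Bglap, Bglap2 and Bglap3 made up 91.6% of the molecules of osteoblast-like cells, Col2a1 56.9% of those of cartilage-like cells and Cxcl12 57.3% of those of reticular-like cells. Per cell, osteoblast-like cells held 31.4 Alpl molecules, cartilage-like cells 100.3, the Mmp9/Postn cluster 44.1 and reticular-like cells 1.61. For Spp1 these means were 43.6, 105, 285 and 23.7, and for Pth1r 23.3, 133, 16.4 and 1.97. For Mmp13 they were 0.682, 8.50, 198 and 8.73. On either scale another group was above the osteoblast-like cells for each of the 4 genes.

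**Figure D2:**
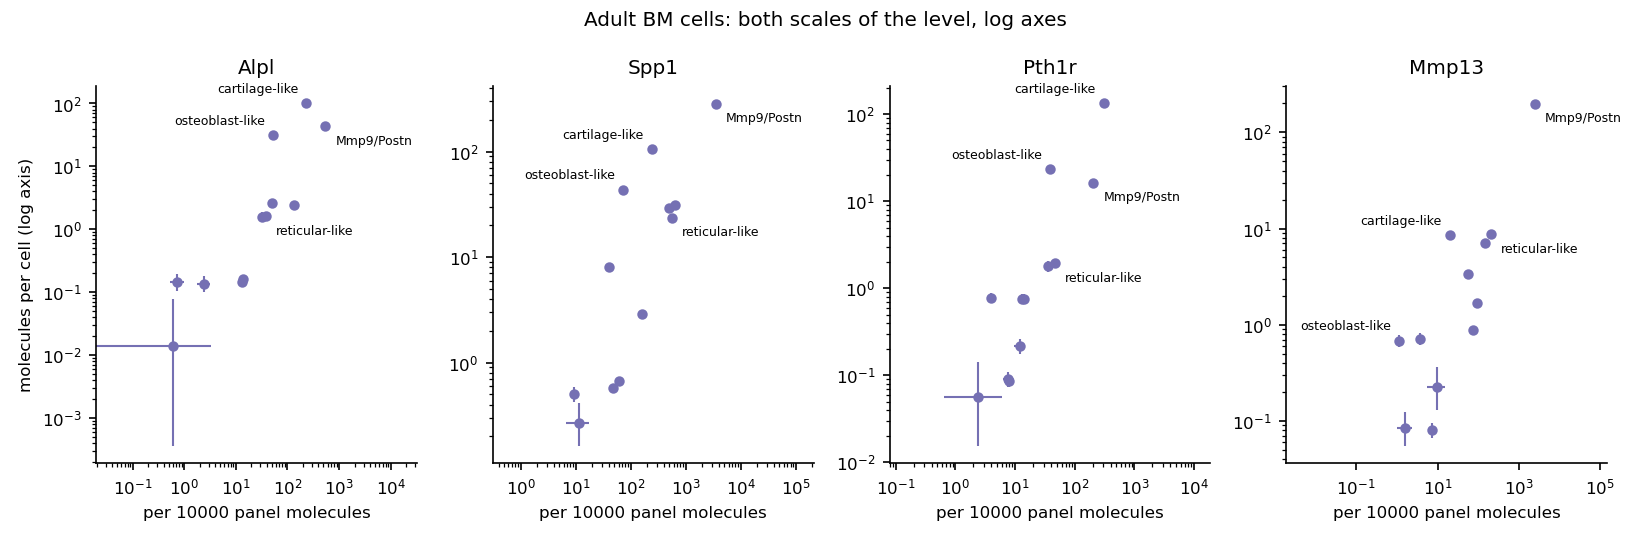
Adult groups of at least 50 cells, with the level per 10000 panel molecules on the horizontal and molecules per cell on the vertical axis, both on log axes, and bars for exact 95% Poisson intervals. Points for osteoblast-like and cartilage-like cells lie high for their horizontal position, so that osteoblast-like cells exceed reticular-like cells per cell in Alpl, Spp1 and Pth1r but not in Mmp13. Counts are DBEC-adjusted.

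The ratio of osteoblast-like to reticular-like cells was 1.39 (1.34 to 1.44) for Alpl, 0.131 (0.129 to 0.133) for Spp1, 0.843 (0.813 to 0.874) for Pth1r and 0.00556 (0.00483 to 0.00637) for Mmp13, per 10000. Per cell it was 19.5, 1.84, 11.9 and 0.0781, so in these counts Spp1 and Pth1r turned and Mmp13 did not. The error correction, described next, bears on the Mmp13 ratio and on that of Spp1. The ratio of osteoblast-like to cartilage-like cells was 0.226 (0.221 to 0.231) for Alpl, 0.299 (0.294 to 0.305) for Spp1, 0.126 (0.123 to 0.130) for Pth1r and 0.0579 (0.0501 to 0.0666) for Mmp13 per 10000, and 0.313, 0.415, 0.175 and 0.0802 per cell, below 1 on both scales. With collagen, osteocalcin and Cxcl12 left out of the denominator, Alpl and Spp1 stood above the cartilage-like level, at 1.16 and 1.54.

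The Mmp13 value of osteoblast-like cells turned on the error correction. The deposited counts come in steps, first recursive substitution error correction (RSEC), then distribution-based error correction (DBEC), which drops molecules of a target with too few reads. DBEC kept 1.06% of the 19630 RSEC molecules of Mmp13 in osteoblast-like cells, where it kept 58.8% over all targets. In mural-like cells it kept 1.64% and in Ptprc cells 3.48%. In the Mmp9/Postn cluster it kept 73.2% and in reticular-like cells 55.02%. On RSEC molecules, Mmp13 was 63.6 per 10000 in osteoblast-like cells, 68.5 in cartilage-like, 224 in reticular-like and 93.3 in Ptprc cells. Per 10000 the osteoblast-like cells were again lowest of these, but the gap to reticular-like cells shrank to a ratio of 0.283. Per cell the order turned. RSEC molecules of Mmp13 were 64.4 in osteoblast-like, 41.9 in cartilage-like, 15.9 in reticular-like and 2.30 in Ptprc cells. In cartilage-like cells 66.1% of Alpl and 65.7% of Pth1r molecules were kept, near the 70.2% over all targets of that class. In osteoblast-like cells DBEC kept 43.9% of Alpl, 36.2% of Pth1r and 26.3% of Spp1, each below the 58.8% over all targets. It kept 59.5% of Spp1 in cartilage-like and 61.4% in reticular-like cells. RSEC molecules of Spp1 per cell were 165.5 in osteoblast-like, 176.5 in cartilage-like and 38.5 in reticular-like cells.

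**Figure D3:**
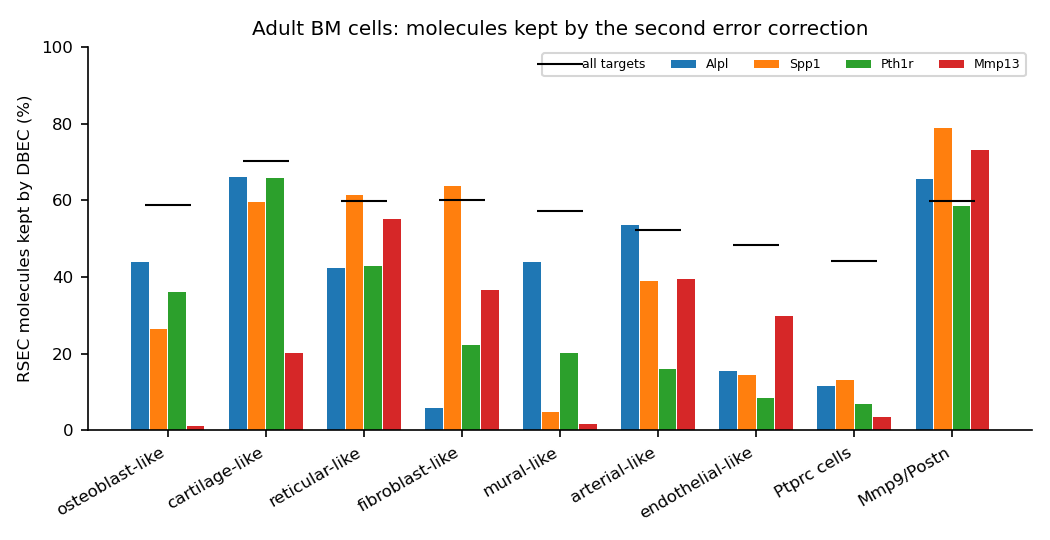
Share of RSEC molecules that DBEC kept in Adult BM cells (vertical axis, %), as bars for each gene and as a black line for all targets, in the named classes and the Mmp9/Postn cluster. Mmp13 was kept at 1.06% in osteoblast-like cells and at 73.2% in the Mmp9/Postn cluster.

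The Mmp9/Postn cluster had the highest adult level per 10000 of Alpl, Spp1 and Mmp13, and the highest of Pth1r after cartilage-like cells. The 4 genes summed to 66.8% of its panel molecules (Spp1 alone 35.04%), against 1.66% in osteoblast-like, 8.08% in cartilage-like and 8.50% in reticular-like cells. It held Bglap at 101 per 10000 against 2759 in osteoblast-like and 7.04 in reticular-like cells, Postn, a matrix protein of periosteum, at 210.1, and Acp5, a marker of osteoclasts, at 1.61. Ptprc was seen in 1.38% of its cells. Its median cell held 31 Alpl, 103 Spp1, 13 Pth1r and 44 Mmp13 molecules. The levels were uneven over cells, 13 cells holding 50% of the Spp1, 15 of the Mmp13, 26 of the Alpl and 31 of the Pth1r. Relative to osteoblast-like cells, its levels per 10000 were 10.3 (9.95 to 10.6) times as high for Alpl, 47.8 (46.9 to 48.8) for Spp1 and 5.15 (4.91 to 5.39) for Pth1r, and per cell 1.41 (1.36 to 1.45), 6.55 (6.42 to 6.68) and 0.705 (0.672 to 0.738). With a coarser clustering (resolution 0.25) 142 of its 145 cells joined the osteoblast-like cells, and the ratio of osteoblast-like to cartilage-like cells became 1.15 for Spp1 and 7.44 for Mmp13, both above 1. At resolution 1.0 all 145 stayed apart and unnamed.

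Within the cluster the genes parted. A subcluster led by Aspn (56 cells) had the highest Alpl, at 762 (736 to 788) per 10000, and Pth1r, at 296 (280.1 to 312), with Bglap at 193 and Postn at 354. A subcluster led by Mmp9 (40 cells) had the highest Mmp13, at 3858 (3800.5 to 3917), against 1120.3 (1089 to 1152) in the Aspn subcluster, and the lowest Alpl, at 258 (244 to 274). A subcluster led by Cxcl12 (49 cells) lay between in Mmp13, at 2278 (2225 to 2333). Over the 145 cells, Spearman's rho of the shares was 0.733 for Alpl with Pth1r, -0.413 for Alpl with Mmp13 and -0.445 for Alpl with Spp1. Shares of one cell sum to a fixed total, so that abundant genes push these coefficients down.

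**Figure D4:**
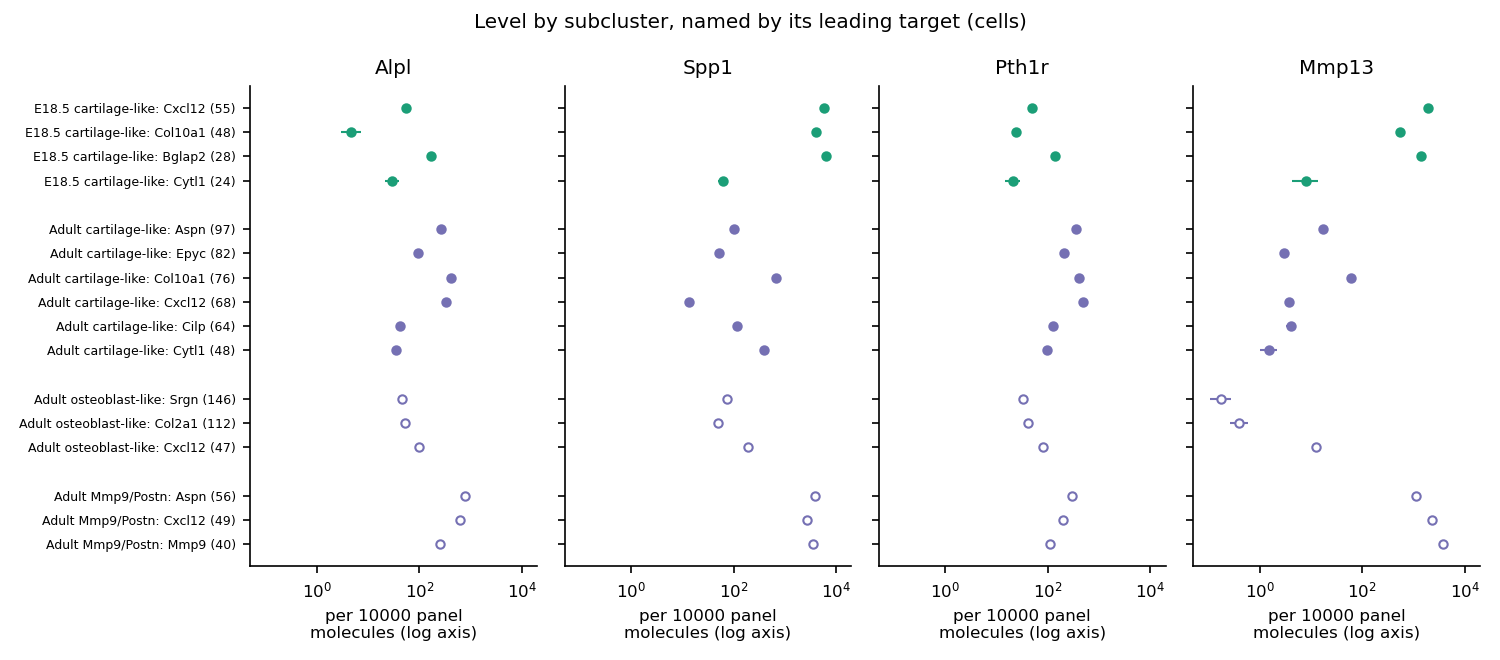
Level of each gene (per 10000 panel molecules, log axis) in subclusters, named by their leading target with the number of cells, of cartilage-like cells (filled points, green for E18.5 and violet for adult), adult osteoblast-like cells and the adult Mmp9/Postn cluster (open points). Bars are exact 95% Poisson intervals, and Mmp13 spans from 0.178 in an osteoblast-like subcluster to 3858 in the Mmp9-led one.

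Adult cartilage-like cells fell into 6 subclusters, and each of the 4 genes varied among them. The subcluster led by Col10a1, the collagen of hypertrophic cartilage (76 cells), had the highest Alpl, at 415 (409 to 421) per 10000, Spp1, at 661 (653 to 668), and Mmp13, at 59.9 (57.7 to 62.2). Pth1r was highest in the subcluster led by Cxcl12 (68 cells), at 485 (478 to 493), which had an Alpl of 331 (325 to 338) and the lowest Spp1, at 13.3 (12.02 to 14.6). The subclusters led by Cilp and Cytl1, genes of cartilage matrix and of chondrocytes, were lowest in Alpl, at 42.8 (40.1 to 45.7) and 34.4 (31.8 to 37.2), and in Pth1r, at 127 (122 to 132) and 97.98 (93.5 to 103). Over the 435 cells Spearman's rho of Alpl with Pth1r was 0.748, and that of Spp1 with Mmp13 0.371. Of the Spp1 molecules, 95.2% were in the 44 richest cells, 1 of which held 4725 of 45706, whereas the 44 cells richest in Pth1r held 34.8% of its molecules.

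The 3 subclusters of adult osteoblast-like cells were led by Srgn with Bglap (146 cells), by Col2a1 with Postn (112 cells) and by Cxcl12 with Igfbp7 (47 cells). The last had the highest level of each gene per 10000: Alpl at 96.8 (91.6 to 102), Spp1 at 189 (181 to 196), Pth1r at 79.96 (75.2 to 84.9) and Mmp13 at 12.3 (10.5 to 14.4). Its median depth was 1883 molecules against 6561 and 5797. Per cell its Alpl, at 27.3, was below theirs (32.3 and 31.8), its Pth1r, at 22.5, lay between (22.3 and 24.9), and its Spp1, at 53.1, and Mmp13, at 3.47, were above theirs (50.7 and 30.2, and 0.123 and 0.241). The median osteoblast-like cell held 24 Alpl, 20 Pth1r and 2 Spp1 molecules and no Mmp13.

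Reticular-like cells, the Cxcl12-abundant stroma that feeds haematopoietic cells, came in 2 clusters. The first (1874 cells, Lepr at 91.4 per 10000) had Alpl at 17.2 and Mmp13 at 152. The second (737 cells, Lepr at 73.3) had Alpl at 93.8 and Mmp13 at 353, that is 5.46 (5.11 to 5.82) and 2.33 (2.27 to 2.39) times the first. Pth1r was 1.55 times as high, while Spp1 was at 0.902 (0.886 to 0.919) of the first, so the reticular clusters parted in Alpl and Mmp13 and hardly in Spp1. Their median depths were 385 and 350 molecules.

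At E18.5 the skeletal signal of Spp1 and Mmp13 sat in very few cells. The 155 cartilage-like cells of the fetal marrow held 77231 Spp1 molecules, 87.9% of the library's, and 20335 Mmp13 molecules, 91.97%. Most of both was in subclusters led by Cxcl12 or by osteocalcin genes, as given below. Spp1 alone made up 47.9% of the panel molecules of the 155 cells. Their levels were 4795 (4761 to 4829) per 10000 for Spp1, 1263 (1245 to 1280) for Mmp13, 53.8 (50.3 to 57.5) for Alpl and 51.97 (48.5 to 55.6) for Pth1r. The fibroblast-like cells led by Postn (1184) had 26.8 (24.98 to 28.7), 21.9 (20.3 to 23.7), 19.4 (17.9 to 21.1) and 25.7 (23.9 to 27.5) in the same order. A Pth1r molecule was seen in 39.4% (36.6 to 42.3) of them against 1.01% (0.817 to 1.23) of Ptprc cells, and in 12.2% against 0.618% at 50 molecules per cell. Fibroblast-like cells held 42.9% and cartilage-like cells 45.99% of the library's Pth1r. Mural-like cells (163) had Spp1 at 26.1 (22.2 to 30.5) per 10000, Pth1r at 12.3 (9.66 to 15.4), Alpl at 17.3 (14.1 to 20.9) and Mmp13 at 2.66 (1.52 to 4.32).

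The fetal cartilage-like cells fell into 4 subclusters. One led by Bglap2, Bglap and Bglap3 (28 cells), the nearest to osteoblasts in that library, had the highest Alpl, at 166 (150.4 to 183) per 10000, the highest Pth1r, at 135 (121 to 151), and the highest Spp1, at 6258 (6159 to 6358). One led by Cxcl12, Notch3, Kitl, Cp and Lepr (55 cells) had the highest Mmp13, at 1973 (1941 to 2006), with Spp1 at 5838 (5783 to 5894). It held 42143 of the class's Spp1 and 14245 of its Mmp13 molecules, with Col2a1 at 118 per 10000. The osteocalcin-led one held 15213 and 3371. In the one led by Col10a1 (48 cells) Spp1 stood at 4066 (4009 to 4123) and Mmp13 at 556 (536 to 578), with Alpl at only 4.73 (2.997 to 7.09). The one led by Cytl1, with Col2a1 at 6139 (24 cells), was lowest in Spp1, at 61.5 (49.9 to 74.96), and Mmp13, at 8.16 (4.34 to 13.95). Alpl and Col10a1 thus lay apart at E18.5, with a Spearman's rho of -0.391 over 155 cells, whereas the coefficient over the 435 adult cells was 0.388. Both are descriptions of cells within 1 library, at a median depth of 594 molecules at E18.5 and 4003 in the adult. The E18.5 subcluster led by Col10a1 had a median of 90. There Col10a1, at 3315 per 10000, and Spp1 filled much of the counts, which lowers the shares of other genes.

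Set side by side, cartilage-like cells of the adult and the E18.5 marrow differed in opposite directions for the 4 genes. The ratio of the adult to the E18.5 level was 4.34 (4.06 to 4.65) for Alpl and 5.97 (5.57 to 6.40) for Pth1r, but 0.0510 (0.0504 to 0.0516) for Spp1 and 0.0157 (0.0151 to 0.0162) for Mmp13. All 4 differed by over 2-fold, as did 79.2% of all targets in that class, so the count says little by itself. Per cell the ratios were 17.9, 24.7, 0.211 and 0.0648 in that order, with the same directions. On RSEC molecules the Mmp13 ratio was 0.0577, and DBEC kept 20.3% of Mmp13 in the adult and 77.4% in the fetal cells. Among the other bone and cartilage genes, Col2a1, Acan, Sox9 and Bglap3 were over 2-fold higher in the adult cells and Postn, Col10a1, Acp5 and Mmp9 over 2-fold lower. Stage, library and the mixture of subclusters cannot be told apart here. Of the adult cells, 76 of 435 were in a subcluster led by Col10a1, and of the E18.5 cells 48 of 155. In subclusters led by Cxcl12 were 68 of the adult and 55 of the E18.5 cells.

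In fibroblast-like cells the ratio of adult to E18.5 was 18.6 (17.3 to 20.03) for Spp1 and 2.63 (2.39 to 2.90) for Mmp13, and 0.122 (0.0890 to 0.163) for Alpl and 0.507 (0.440 to 0.583) for Pth1r. Past 2-fold were 3 of the 4, beside 65.0% of all targets. These classes had different leaders, Postn at E18.5 and Cilp in the adult, and Pth1r turned to 1.40 on RSEC molecules and to 1.15 per cell. On RSEC molecules the ratio was 0.845 for Alpl and 5.77 for Spp1.

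Alpl had a further and larger site at E18.5. Of the 22658 Alpl molecules of the fetal marrow, 19332, or 85.3%, were in Ptprc cells, at 201 (198 to 204) per 10000. A molecule was seen in 26.4% (25.5 to 27.3) of these 9642 cells, and in 25.7% at 50 molecules per cell. The molecules were spread over many cells, 585 of them holding 50%, and the richest cell had 49. Ptprc cells of E18.5 EC had 2.65 (1.73 to 3.88) and those of the adult 13.3 (11.7 to 15.03). The adult to E18.5 ratio in Ptprc cells was 0.0660 (0.0580 to 0.0748) for Alpl, 1.06 (0.996 to 1.13) for Spp1, 6.88 (5.34 to 8.88) for Pth1r and 1.61 (1.32 to 1.96) for Mmp13. Alpl and Pth1r passed 2-fold, 2 of 4 beside 59.4% of all targets. On RSEC molecules the Alpl ratio was 0.276, a smaller gap in the same direction, that of Pth1r was 16.04, and without the single richest cell of each library, which in the adult held 105 of 249 Alpl molecules, the Alpl ratio was 0.0384.

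Across the 13 clusters of Ptprc cells in the fetal marrow, Alpl ranged from 25.9 to 648 per 10000, and 4 clusters with 2419 cells were above 500. Lef1, a transcription factor of the Wnt pathway that early lymphoid cells also use, followed it. It ranged from 14.2 to 468 over the same clusters. Cells with a Lef1 molecule (2446) had Alpl at 796 (784 to 807) per 10000 and an Alpl molecule in 87.9% of cells. Cells without one (7196) had 14.996 (14.1 to 15.9) and 5.53%. Their median depths were close, 86 and 82 molecules, and at 50 molecules per cell the shares were 86.8% and 3.89%. Spearman's rho of the shares of Alpl and Lef1 was 0.836 over the 9642 cells and 0.951 over the 13 clusters, both in 1 library.

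The Ptprc cells with Alpl also had more of the cell cycle genes: Mki67 at 1134 per 10000 in the 2547 cells with an Alpl molecule against 394 in the 7095 without, and Top2a at 1952 against 696. Neither Lef1 nor the cell cycle genes had been used to form the clusters. In 3 unnamed clusters of the fetal marrow, with 156, 137 and 130 cells and Ptprc in under 5% of them, Alpl was 494 (455 to 535), 182 (159 to 208) and 365 (330.2 to 402) per 10000, and Lef1 447, 119 and 285. The pairing of Alpl and Lef1 was thus found in clusters with and without Ptprc. In the adult, 63 of 1724 Ptprc cells had Lef1, with Alpl at 109.6 (83.5 to 141) against 10.4 (8.996 to 12.02) in the others. In E18.5 EC there were 9 such cells, with 8 Alpl molecules. Bglap, the osteocalcin gene, stood at 0.530 per 10000 in Ptprc cells of the fetal marrow.

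**Figure D5:**
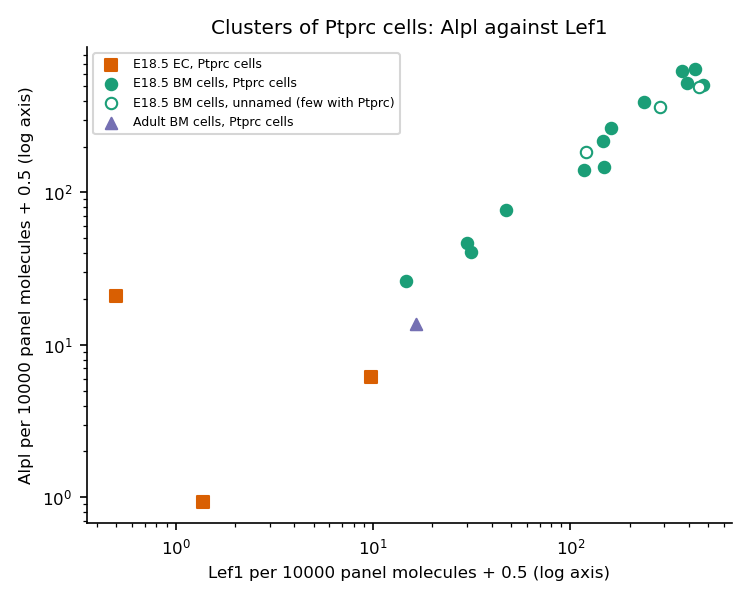
Alpl (vertical) against Lef1 (horizontal), each per 10000 panel molecules with 0.5 added, on log axes, for clusters of Ptprc cells in the 3 libraries (filled) and for the 3 E18.5 BM cell clusters with few Ptprc-bearing cells (open circles). The E18.5 BM cell clusters rise along one line from 25.9 to 648 Alpl, above the clusters of the other libraries.

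Osteoclast-like cells, the bone-resorbing lineage marked by Acp5, Ctsk and Atp6v0d2, held Spp1 at levels that parted the E18.5 libraries. In E18.5 EC their Spp1 was 1820.3 (1784 to 1857) per 10000, which was 78.4% of that library's Spp1, and in the fetal marrow 91.2 (87.6 to 94.9). The ratio was 19.96 (19.1 to 20.9) per 10000 and 11.3 (10.8 to 11.9) per cell. In E18.5 EC 38.4% (32.9 to 44.2) of the 302 cells had a molecule, 8 cells held 50% and 1 cell held 1091 of 9815. In the fetal marrow 23.9% (21.1 to 26.9) of 865 had one. Within E18.5 EC, subclusters led by Apln (114 cells) and by Stab1 (103 cells) had Spp1 at 2506 (2441 to 2571) and 2399.8 (2324 to 2477), whereas one led by Col10a1 (68 cells) had 19.6 (10.4 to 33.6) and one led by Ctsk (17 cells) 211 (181 to 245). In the fetal marrow the subcluster with the highest Acp5 (3902) had Spp1 at 60.7 (54.9 to 66.9) and that with the lowest (1003) at 210.1 (199 to 222). A molecule was seen in 44.4% and 17.0% of their cells, at median depths of 495 and 188 molecules. In that class 1 cell held 747 of the 2480 Spp1 molecules, and 4 cells held 50%. The level of Spp1 was thus not highest where osteoclast genes were, but in the fetal marrow the share of cells with a molecule was.

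Alpl was low in osteoclast-like cells, at 2 molecules in E18.5 EC and 14.6 (13.2 to 16.1) per 10000 in the fetal marrow, below the Ptprc cells of the latter. Pth1r was at 2.04 (1.02 to 3.65) and 0.441 (0.228 to 0.771), and Mmp13 at 5.75 (3.91 to 8.16) and 1.32 (0.927 to 1.83).

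In the endothelium of E18.5 EC and of the adult marrow, the Alpl level was higher in arterial-like than in other endothelial-like cells. The levels were 7.46 (4.995 to 10.7) and 0.767 (0.455 to 1.21) per 10000 in E18.5 EC, a ratio of 9.72 (5.22 to 18.6) that rested on 29 and 18 molecules, 15 of the former in 1 cell. The adult values were 135 (127 to 143) and 13.7 (11.8 to 15.8), a ratio of 9.82 (8.41 to 11.5), and 45.8% (41.1 to 50.6) of arterial-like cells had a molecule against 8.54% (6.996 to 10.3). At 50 molecules per cell the adult shares were 31.3% and 5.36%. Those of E18.5 EC were 0.408% and 0.539%, so the difference was not seen there on this scale. The fetal marrow had no arterial-like class. Its endothelial-like subcluster led by Gja4 (76 cells) had Alpl at 4.46 (0.920 to 13.03) per 10000, against 29.2 (24.3 to 34.9) for its whole class. Among subclusters of adult arterial-like cells, Alpl was 71.6 (61.9 to 82.4) in one led by Aspn (126 cells), 340.2 (311 to 371) in one led by Mgp (88 cells) and 599 (534 to 669.5) in one led by Vwf (47 cells). The last of these also had Acta2, a smooth muscle gene, at 40.95 per 10000, and the one led by Mgp at 51.6, against 4.41 in the one led by Aspn. The part of smooth muscle RNA in these values was not tested. The adult arterial-like cluster had 3 arterial and 4 other endothelial markers among its leaders, and that of E18.5 EC 3 arterial and 3 fibroblast markers.

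Some endothelial-like values rested on single cells. Of the Spp1 in endothelial-like cells of the fetal marrow, 1539 of 1566 molecules were in 1 cell, as were 592 of 601 of the Mmp13, and a subcluster of 33 cells, of which 84.8% had Ptprc, held Spp1 at 2258 (2147 to 2373) per 10000. In the adult, endothelial-like cells had 7.63 (6.24 to 9.23) of Pth1r. In E18.5 EC, endothelial-like cells had 12.4 (11.1 to 13.96) of Spp1, 0.469 (0.234 to 0.839) of Pth1r and 2.004 (1.47 to 2.66) of Mmp13. Ptprc cells of that library had 109 (102 to 115) of Spp1, 0.407 (0.111 to 1.04) of Pth1r and 0.204 (0.0247 to 0.736) of Mmp13. A cluster of 25 cells in that library, led by Postn and Aspn and named here after its values were seen, held 65.8% of its Alpl, 75.5% of its Pth1r and 74.8% of its Mmp13 molecules. In it 1 cell held 56.9% of the Alpl and 1 cell 56.5% of the Mmp13, and 7, 12 and 4 of the 25 cells had Alpl, Pth1r and Mmp13.

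Over the 25 classes and unnamed clusters with at least 50 cells, targets whose levels ran most like each gene included Lef1, Car3 and Wnt5b for Alpl (Spearman's rho 0.464, 0.452 and 0.448), Mmp13 and Col2a1 for Spp1 (0.597 and 0.577), Wnt4, Col2a1 and Panx3 for Pth1r (0.906, 0.764 and 0.746) and Cp, Spp1 and Rspo2 for Mmp13 (0.603, 0.597 and 0.589), among 106 targets. Pth1r thus had the closest companions and Alpl the loosest. Between the 4 genes, rho was 0.597 for Spp1 with Mmp13, 0.568 for Pth1r with Mmp13, 0.494 for Spp1 with Pth1r, 0.354 for Alpl with Pth1r, 0.256 for Alpl with Mmp13 and 0.0492 for Alpl with Spp1. The points share libraries, depth and free RNA, and the coefficients are descriptions.

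Of 23 other genes of mineralization and its cells, the panel measured 12. Bglap, Bglap2 and Bglap3 were at 2759, 2995 and 3405 per 10000 in adult osteoblast-like cells, and Bglap3 was still at 528 in adult Ptprc cells against 0.707 in those of the fetal marrow. Col2a1 was at 76.1 in adult Ptprc cells, and 1087 of its 1428 molecules there were in a subcluster of 291 cells led by Col2a1 and Acan. In the other subclusters Col2a1 was at 5.69 to 47.8, and over all of them Bglap3 was at 235 to 1103. The adult library thus carried molecules of skeletal genes in cells that should lack them, unevenly for Col2a1. The levels of the 4 genes in those cells were 13.3 for Alpl, 61.5 for Spp1, 7.94 for Pth1r and 7.36 for Mmp13. They can hold stray molecules, any the cells made themselves and those of other cells placed in the class, which cannot be told apart. A subcluster of 146 of those cells was led by Bglap2, Bglap and Postn, with Ptprc in 36.99% of its cells. It held 117 of 249 Alpl, 210 of 1154 Spp1, 40 of 149 Pth1r and 58 of 138 Mmp13 molecules. The subcluster led by Col2a1 held 40 Alpl, 167 Spp1, 49 Pth1r and 21 Mmp13 molecules. Col10a1 was at 1199 and 543 in cartilage-like cells of the fetal marrow and the adult, Acan at 46.9 and 363, and Sox9 at 10.9 and 60.5. Mmp9, the gelatinase of osteoclasts, was at 263 in osteoclast-like cells of the fetal marrow and at 105 in the adult Mmp9/Postn cluster, where Ctsk, at 0.932, and Atp6v0d2, at 0.0847, were near 0.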

How the data were processed

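The authors amplified the panel from BD Rhapsody single-cell libraries and, per the file headers, made the tables with the BD Targeted Rhapsody Analysis Pipeline 1.8. The deposited values are counts of molecules (UMIs) per cell and target, given raw, RSEC-adjusted and DBEC-adjusted, and DBEC-adjusted counts were used. Barcodes under 20 molecules or 5 targets were left out. Each library was clustered separately by the Leiden method (igraph 0.11.9, resolution 0.5, 11 principal components, 20 neighbours). Python 3.11.15 with scipy 1.17.1 gave exact Poisson, binomial and conditional binomial 95% intervals. No doublet caller was run. With 1 library per group, no test between groups was made. The ratio intervals were checked on simulated counts. Text names the 4 genes in each class of at least 50 cells, the 3 targets most like each (some are not reported here), a list of mineralization genes and lead genes. Members and lists were chosen with earlier results of these data known. Alternatives varied error correction, cell filter, clustering, class definition, denominator and doublets.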

Additional observations from a re-analysis of the deposited data

Results flagged for a closer look

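These ratios set a class against all other cells of its library, and lay on opposite sides of 1 in different libraries. None of the differences was tested, since each library stands alone.

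In cartilage-like cells, the ratio in adult and in fetal marrow was 4.56 and 0.414 for Alpl, 0.802 and 75.6 for Spp1, and 0.157 and 119 for Mmp13. In fibroblast-like cells it was 1.78 and 0.0472 for Spp1 and 0.108 and 3.78 for Pth1r, in the same order. In osteoclast-like cells, Spp1 was at 0.167 in the fetal marrow and 25.5 in E18.5 EC, where the remaining cells were mostly endothelial-like. For Mmp13 in endothelial-like cells, the adult marrow had 0.780, the fetal marrow 1.19 and E18.5 EC 0.135, and in the fetal marrow 592 of the 601 molecules were in 1 cell. For Alpl in Ptprc cells, the adult marrow had 0.123, the fetal marrow 5.29 and E18.5 EC 0.459.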

How the results depend on the processing

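No paired analysis was possible because each group is 1 library, and there was no replicate to leave out. The values below are the adult ratios of osteoblast-like to reticular-like and to cartilage-like cells, in that order for each gene. On RSEC molecules they were 1.31 and 0.285 for Alpl, 0.300 and 0.567 for Spp1, 0.979 and 0.192 for Pth1r and 0.283 and 0.929 for Mmp13. On raw molecules they were 1.07 and 0.241 for Alpl, 0.202 and 0.397 for Spp1, 0.739 and 0.147 for Pth1r and 0.140 and 0.729 for Mmp13. Per cell they were 19.5 and 0.313 for Alpl, 1.84 and 0.415 for Spp1, 11.9 and 0.175 for Pth1r and 0.0781 and 0.0802 for Mmp13, and without collagen, osteocalcin and Cxcl12 in the denominator 8.37 and 1.16 for Alpl, 0.790 and 1.54 for Spp1, 5.09 and 0.650 for Pth1r and 0.0335 and 0.298 for Mmp13. At resolution 0.25 they were 2.13 and 0.350 for Alpl, 0.503 and 1.15 for Spp1, 1.06 and 0.158 for Pth1r and 0.699 and 7.44 for Mmp13. Without possible doublets they were 1.70 and 0.238 for Alpl, 0.153 and 0.470 for Spp1, 0.886 and 0.132 for Pth1r and 0.00768 and 0.0655 for Mmp13, and with classes cut by lead gene 1.17 and 0.214 for Alpl, 0.133 and 0.501 for Spp1, 0.824 and 0.119 for Pth1r and 0.00521 and 0.108 for Mmp13. At resolution 1.0 the ratios to cartilage-like cells were 0.236 for Alpl, 0.275 for Spp1 and 0.132 for Pth1r. Without the richest cell of each class, Spp1 had 0.128 and 0.319, and Mmp13 against reticular-like cells 0.00359. Without shared barcodes, Spp1 against reticular-like cells had 0.134. The direction turned for Alpl against cartilage-like cells (1 setting), Spp1 against reticular-like (1) and cartilage-like cells (2), Pth1r against reticular-like cells (3) and Mmp13 against cartilage-like cells (1), and in no setting for the other ratios. At resolution 0.25 this followed from 142 cells of the Mmp9/Postn cluster joining the osteoblast-like cells. Elsewhere the cause was not tested. RSEC molecules per cell were not among the settings. On that scale Mmp13 was 64.4 in osteoblast-like, 15.9 in reticular-like and 41.9 in cartilage-like cells, so both of its ratios lay above 1. Pth1r in fibroblast-like cells, adult over E18.5, turned to 1.40 on RSEC molecules and 1.15 per cell. Of 68 class levels, 28 stayed within 1.5 times on RSEC molecules, 39 on raw molecules and 26 with classes cut by lead gene. Of 61 shares of cells, 35 did so at 100 molecules per cell. Molecules per cell limit the shares, and a count of 0 leaves up to 3 molecules open.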
